A study of Mus musculus with 3 samples.

Results

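Mature migratory dendritic cells were examined in single-cell RNA of mouse suprarenal aorta, as cells with at least 1 unique molecular identifier (UMI, a count of 1 captured RNA molecule) of Ccr7 and at least 1 of Fscn1, and 0 UMIs of Cd3e, Cd3d and Cd79a. Of 5465 kept cells, 69 met this rule. They were 50 of 2839 cells in the aneurysm library, 18 of 1848 in the room air library and 1 of 778 in the control library. The rule was drawn up with results of these data known, and the counts of Ccr7 and Fscn1 that chose the cells are given as a description only.

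The aneurysm library was a pool of aortas from 4 Apoe-/- mice on the C57Bl/6 background that received a high fat (Western) diet and cigarette smoke for 16 weeks and had developed a measurable dilatation. The room air library was a pool from 5 Apoe-/- mice of the same background, on that diet for 16 weeks and exposed to room air. The control library was a pool from 5 C57Bl/6 mice fed chow. From each pool, CD45+CD31- leukocytes and CD45-CD31+ endothelial cells were sorted, so that a share of all cells depends on the sort. Smoke and the choice of mice with a dilatation cannot be told apart here, nor can loss of Apoe and the diet against control. A smoke-exposed group without aneurysm that the labels count was not analysed here.

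Dendritic cells take up antigen in a tissue, and on maturation they stop sampling, load peptides on MHC molecules and leave through lymphatic vessels for the draining lymph node. Ccr7 encodes the receptor for the chemokines CCL19 and CCL21, which guide this migration. Fscn1 encodes fascin, which bundles actin in the dendrites of mature cells. Mature cells also carry costimulatory ligands for T cells, inhibitory ligands such as PD-L1, the products of NF-kB target genes, and the chemokines CCL17 and CCL22, which attract CCR4-bearing T cells. They arise from type 1 (cDC1) and type 2 (cDC2) conventional dendritic cells. On GRCm38 (mm10), Ccr7 (ENSMUSG00000037944) lies on chromosome 11 from 99144196 to 99155077 and Fscn1 (ENSMUSG00000029581) on chromosome 5 from 142960343 to 142973185, and both are protein-coding.

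Each group was 1 library, so no value below has a replicate. The intervals are 95% intervals that cover counting error only, and no test between groups was possible. Those of gene ratios take each UMI as independent and do not cover the spread between cells. The libraries held 16698309, 9998517 and 2568192 UMIs in aneurysm, room air and control, with a median of 4481, 3898.5 and 2704 per kept cell. The stated viability was 94%, 91% and 73% in the same order, and its part in the results was not tested. Apoe, the gene deleted in the Apoe-/- mice, had 12.9, 17.1 and 10537 CPM (a gene's share of all UMIs, scaled to 1000000) over all cells of the aneurysm, room air and control libraries. The aneurysm and room air libraries shared 5 cell barcodes and the room air and control libraries 4, and 0 of these were member cells.

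Most member cells of the aneurysm library carried the wider program of mature dendritic cells, and part of the room air cells did not. Beside Ccr7 and Fscn1, 10 further maturation markers were counted in each cell (Ccl22, Ccl17, Cacnb3, Nudt17, Il4i1, Socs2, Relb, Cd200, Apol7c and Tmem123). Aneurysm members held from 1 to 9 of them with a median of 7, and room air members from 0 to 8 with a median of 5.5. At least 5 were present in 45 of 50 aneurysm cells and in 11 of 18 room air cells. The same was true of 2 of 423 aneurysm and 0 of 165 room air B cells, of 2 of 529 and 3 of 323 T cells, and of 2 of 137 and 0 of 69 comparison cDC2 cells. Ccr7 ranged from 1 to 45 UMIs per aneurysm cell with a median of 9.5, against 1 to 19 with a median of 4.5 in room air. Fscn1 ranged from 1 to 112 UMIs with a median of 18 in aneurysm, against 1 to 39 with a median of 5.5 in room air.

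Cells that met the rule with 1 UMI of each gene differed from the rest. There were 3 of them in aneurysm, with a median of 2 of the 10 markers, and 5 in room air, with a median of 0 and a highest value of 2. In 4 of these 5 room air cells the complement genes C1qa, C1qb and C1qc, which mark macrophages, made up more than 0.5% of UMIs, and the median of the 5 was 1.83%. The only control member also had 1 UMI of each gene, 0 of the 10 other markers, and UMIs of the endothelial genes Pecam1, Emcn, Aqp1 and Tie1. It is counted by the rule but does not carry the program, so control is left out of the gene comparisons. Cells with at least 2 UMIs of each gene and 0 lineage UMIs numbered 44 in aneurysm, 10 in room air and 0 of 778 in control, and had medians of 7 and 6.5 of the 10 markers in aneurysm and room air. The comparisons between the libraries are therefore also given for these 44 and 10 cells. The summed level of 9 monocyte markers per member had a median of 189 CPM in aneurysm and 471 CPM in room air. The highest members were at 21920 and 5049 CPM, and at 10930 and 633 CPM among cells with 2 UMIs of each gene.

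**Figure D1:**
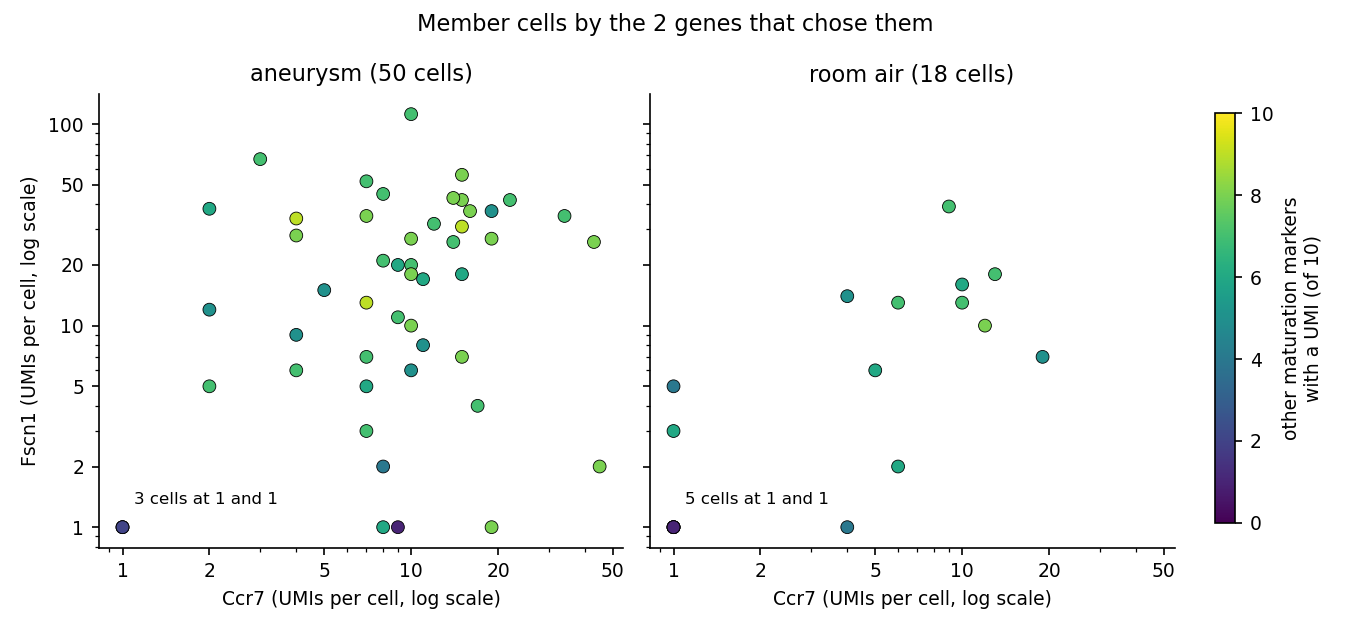
UMIs of Ccr7 (horizontal) and Fscn1 (vertical) in each member cell, both on log scales, in aneurysm (left, 50 cells) and room air (right, 18 cells), coloured by how many of 10 other maturation markers had a UMI. The 3 aneurysm and 5 room air cells with 1 UMI of each gene lie on each other at the lower left and carry few markers, while cells with more UMIs carry mostly 5 or more.

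Just outside the rule, cells with Ccr7 and 0 UMIs of Fscn1 numbered 71 in aneurysm, 34 in room air and 7 in control, and cells with Fscn1 and 0 UMIs of Ccr7 numbered 47, 23 and 5. Their median was 1 of the 10 markers in aneurysm and in room air and 0 in control. The other edge of the rule is its demand for 0 UMIs of Cd3e and Cd3d, subunits of the T cell receptor complex, and of Cd79a, a subunit of the B cell receptor. In aneurysm, 16 cells with Ccr7 and Fscn1 had exactly 1 UMI of these 3 genes and a median of 8 markers. In room air there were 21 such cells, with a median of 6. With at least 2 UMIs of Ccr7 and of Fscn1, 14 cells in each library were left out by a single lineage UMI, and 14 of 14 in each had at least 5 markers.

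The share of member cells was higher in aneurysm than in room air by the rule, but its size followed the treatment of those lineage UMIs. Members were 1.76% of kept cells in aneurysm (exact Clopper-Pearson interval 1.31 to 2.32), 0.974% in room air (0.578 to 1.54) and 0.129% in control (0.00325 to 0.714). The ratio of aneurysm over room air was 1.81 (exact conditional binomial interval 1.04 to 3.29). With at least 2 UMIs of each gene the shares were 1.55% in aneurysm and 0.541% in room air, a ratio of 2.86 (1.42 to 6.38). In control the share was 0 of 778 cells, with an exact upper bound of 0.473% (a floor of 3 counts is 0.386%). With every cell thinned to 1500 UMIs before the rule, the ratio was 1.47 (0.885 to 2.52), with 52 aneurysm, 23 room air and 0 control members. Thinning left out 0 aneurysm, 0 room air and 130 control cells, and it removes lineage UMIs as well as those of Ccr7 and Fscn1.

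The 3 lineage genes removed a larger part of the room air cells. Of the cells with at least 2 UMIs of Ccr7 and of Fscn1, the zeros removed 28 of 72 in aneurysm (38.9%, interval 27.6 to 51.1) and 26 of 36 in room air (72.2%, 54.8 to 85.8). Such UMIs were also more frequent in the comparison cDC2 cells of the room air library. Those cells were kept only with at most 2 such UMIs in all, which limits the shares that follow. Cd3d had a UMI in 15 of 137 comparison cDC2 cells in aneurysm (10.9%) and in 23 of 69 in room air (33.3%), and Cd79a in 21.9% of them in aneurysm and 33.3% in room air, at median depths of 6798 and 6441 UMIs. Without the lineage genes, cells with at least 1 UMI of each gene were 3.42% of the aneurysm and 3.46% of the room air library, a ratio of 0.987 (0.712 to 1.37). This set can also hold lymphocytes. Ccr7 had a UMI in 26% of aneurysm and 23% of room air B cells, and in 26.8% and 17% of T cells. For Fscn1 these shares were 4.96%, 6.67%, 2.27% and 4.95%. Of the 47 aneurysm and 46 room air cells that the zeros removed at this level, 23 and 30 had at most 2 lineage UMIs. A wider set, chosen after the data were seen, took cells with at least 2 UMIs of Ccr7 and of Fscn1 and at most 2 lineage UMIs in all. It held 63 aneurysm cells (2.22%), 32 room air cells (1.73%) and 0 control cells, a ratio of 1.28 (0.825 to 2.03). The interval of the share ratio, for counting error only, lay above 1 by the rule and at 2 UMIs each. It spanned 1 in the thinned cells, in the wider set and without the lineage genes. Each group was 1 library, so the interval is not a test between groups.

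**Figure D2:**
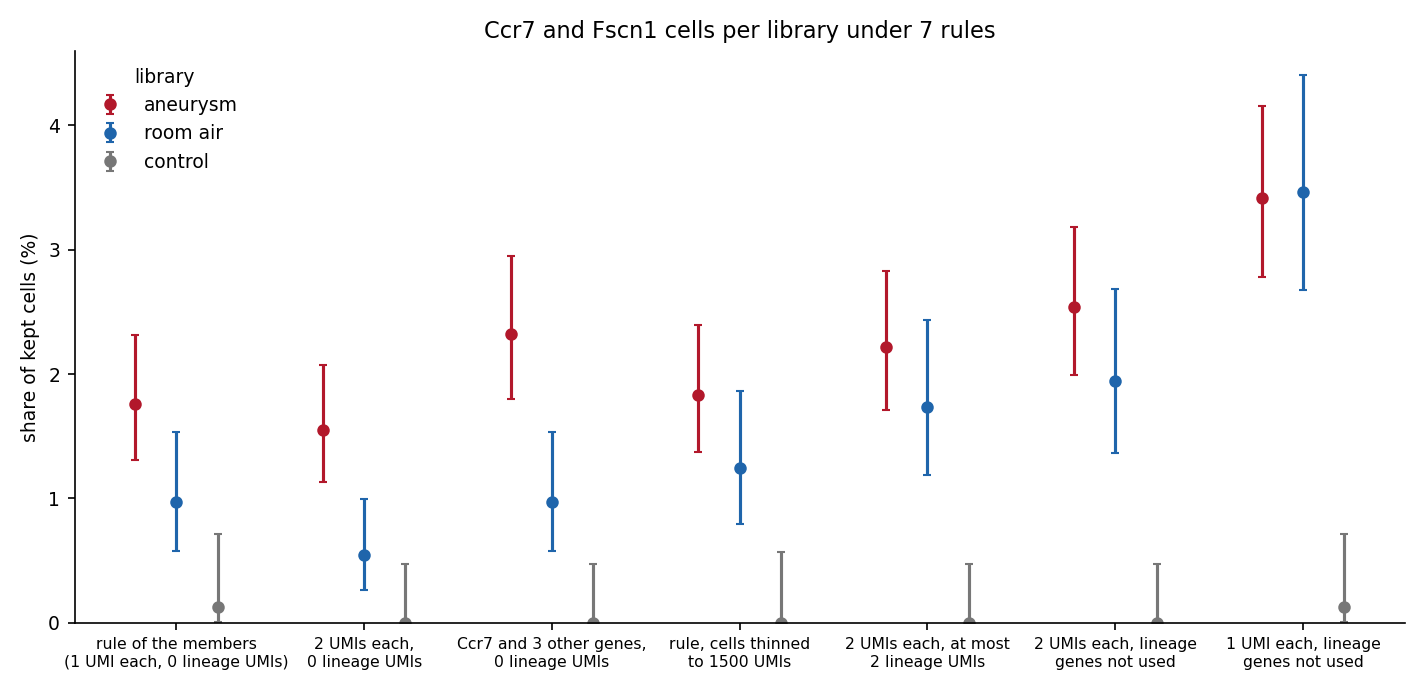
Share of kept cells (%, points) with exact 95% intervals (bars) in aneurysm, room air and control under 7 rules for Ccr7 and Fscn1 cells; the lineage genes are Cd3e, Cd3d and Cd79a. Aneurysm lies above room air in the first 6 rules and slightly below it (3.42% and 3.46%) in the last, and control stays at 0 or at 1 cell.

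The members were then set beside immature dendritic cells of the same libraries. Comparison cDC2 cells (at least 2 UMIs of Cd209a) numbered 137 in aneurysm and 69 in room air, and comparison cDC1 cells (at least 2 UMIs of Xcr1 and Clec9a in all) numbered 29 and 16. Both had 0 UMIs of Ccr7, at most 2 UMIs of Cd3e, Cd3d and Cd79a in all, and at most 0.3% of UMIs from C1q genes. Among 263 genes with at least 50 member UMIs in each library, 29 (11%) were at least 2-fold higher in members than in cDC2 cells in both libraries and 4 (1.52%) at least 2-fold lower. Against cDC1 cells 37 (14.1%) were higher and 3 (1.14%) lower. Ccr7 and Fscn1, which chose the members, are counted among the 263 genes and among the higher genes of both comparisons. The call of Ccr7 was fixed by the rules. Since the members were chosen from these counts, the values that follow describe the cells and are not a test.

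Genes of shape and movement were high in the members of both libraries. Of 11 genes of the migration and cytoskeleton list with at least 50 UMIs in each library, 8 were at least 2-fold above cDC2 cells in both. Of all 263 genes, 11% were. The list holds Ccr7 and Fscn1, which chose the members and pass this minimum, so the count is a description only. Tmem123, which encodes a surface mucin-like protein, had 3686 CPM in aneurysm members and 192 CPM in cDC2 cells of that library, and 2221 against 179.9 CPM in room air. Samsn1, an adaptor that dampens lymphocyte activation, had 1321 CPM in aneurysm members against 99.7 in cDC2 cells, and 613 against 48.7 CPM in room air. Fabp5, a fatty acid binding protein, had 3805 CPM against 200.3 in aneurysm and 2166 against 188 in room air. Marcksl1, which links actin to the membrane, was 9.22-fold above cDC2 cells in aneurysm and 8.96-fold in room air. The tetraspanin Tspan3 was 22.2-fold and 13.1-fold above them, and the tetraspanin Cd63 10.5-fold and 6.98-fold. The largest ratios of the 15 genes that lead this comparison were those of Zmynd15, 73.2-fold in aneurysm and 45-fold in room air, and in aneurysm Tbc1d4, which regulates glucose transporter traffic, at 39.7-fold, against 12.1-fold in room air.

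Of the regulatory molecules of mature dendritic cells, 5 that are named here lay in sum far above cDC2 cells, and the rest of the list did not. The 5 (Il4i1, Socs2, Cd200, Cd274 and Pdcd1lg2) summed to 2527 CPM in aneurysm members against 69.5 CPM in cDC2 cells, and to 1291 against 95.2 CPM in room air. The other 18 measured genes of the list summed to 771 against 584 CPM in aneurysm and to 689 against 495 CPM in room air. The 5 were chosen after their values were seen, and 0 genes of the list had 50 UMIs in each library. Il4i1, an amino acid oxidase that restrains T cells, had 898 CPM in aneurysm members and 525 CPM in room air members. In cDC2 cells it had 30.2 and 16.9 CPM in the same libraries, and in cDC1 cells 2.89 and 0 CPM. An Il4i1 UMI was found in 86% of aneurysm and 72.2% of room air members, against 9.49% and 7.25% of cDC2 cells and 12.1% and 9.09% of B cells, whose median depths were 2471 and 2356 UMIs. Socs2, a suppressor of cytokine signalling, had 706 and 284 CPM in aneurysm and room air members and 6.04 and 6.35 CPM in cDC2 cells. Cd200, an inhibitory surface ligand, had 561 and 263 CPM in members and 6.04 and 48.7 CPM in cDC2 cells. Cd274, which encodes PD-L1, had 246 and 142 CPM in members and 17.1 and 2.12 CPM in cDC2 cells. Its relative Pdcd1lg2, which encodes PD-L2, had 116 and 76.6 CPM against 10.1 and 21.2 CPM. The tryptophan-degrading enzymes Ido1 and Ido2 had 0 UMIs in the members of both libraries.

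Several NF-kB genes were also higher in members. Of 29 genes of the NF-kB and maturation list, 1 had at least 50 UMIs in each library. It was at least 2-fold above cDC2 cells in both, where 11% of all 263 genes were. The list summed to 6694 CPM in aneurysm members against 2108 CPM in cDC2 cells, and to 4617 against 1642 CPM in room air. The genes named here were picked from it, and most rest on fewer than 50 UMIs in at least 1 library. Relb, the subunit of the alternative NF-kB pathway, had 829 and 503 CPM in aneurysm and room air members and 78.5 and 76.2 CPM in cDC2 cells. Traf1, an adaptor of TNF receptors, had 728 and 449 CPM in members and 149.99 and 110.1 CPM in cDC2 cells. Birc2, a ubiquitin ligase of the same receptors, had 434 and 263 CPM against 37.2 and 21.2 CPM. The survival gene Bcl2a1b was 4.87-fold and 6.54-fold above cDC2 cells in aneurysm and room air. Nfkb1, a subunit of the classical pathway, was not higher, with 130.3 and 175 CPM in members and 223 and 184 CPM in cDC2 cells.

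Among secreted factors, Ccl5, a chemokine for T cells, had 4182 CPM in aneurysm and 4081 CPM in room air members, against 154 and 590.5 CPM in cDC2 cells. T cells also make Ccl5, with 1930.3 and 6078 CPM, and its level in B cells was 158 CPM in aneurysm and 448 CPM in room air. Cxcl16, a membrane-bound ligand of CXCR6, had 1332 and 1258 CPM in members and 281 and 233 CPM in cDC2 cells. Il12b, a subunit of interleukin 12, had 9 UMIs in 6 aneurysm members and 7 UMIs in 3 room air members. Il10, Il12a and Il23a had 0 UMIs in the members of both libraries, which allows up to 3 counts in each.

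**Figure D3:**
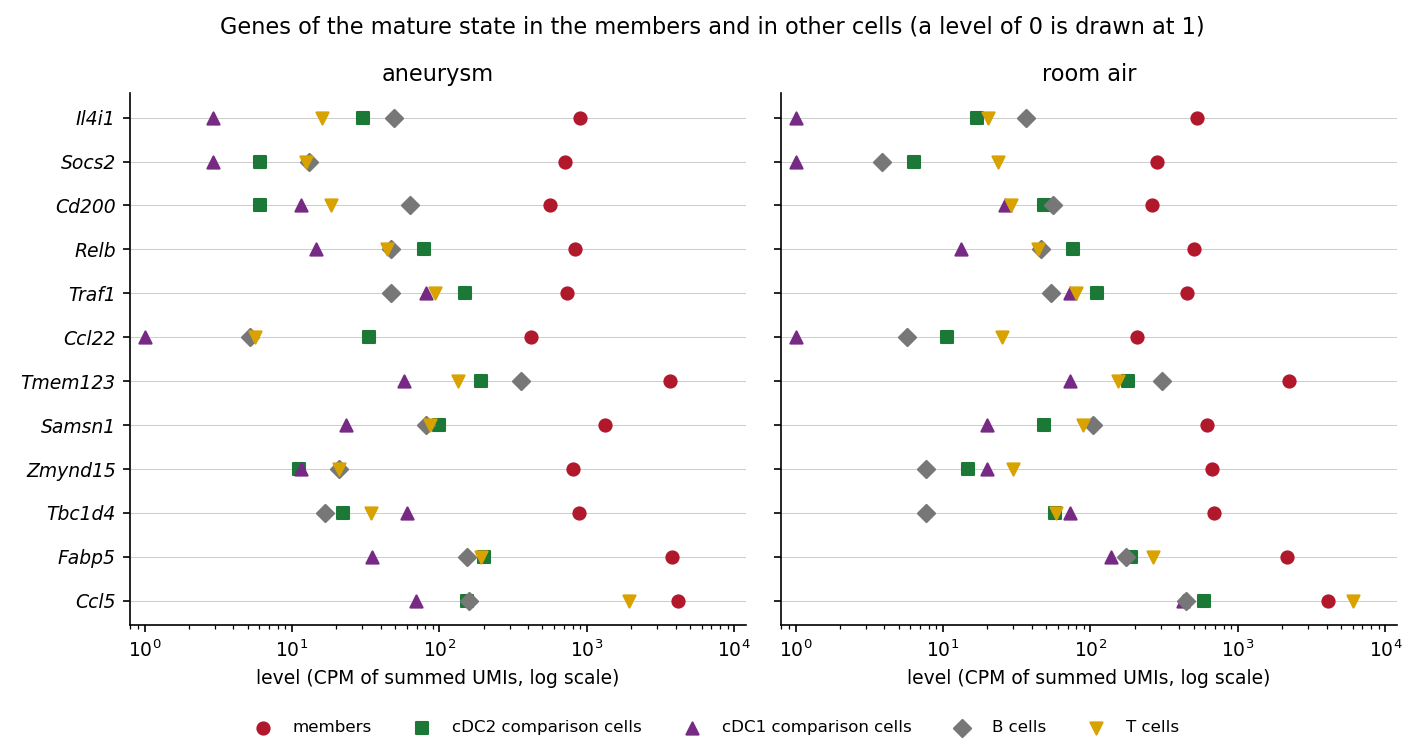
Level (CPM of summed UMIs, log scale, 0 drawn at 1) of 12 genes of the mature state in aneurysm (left) and room air (right), for members and for cDC2, cDC1, B and T cells. Members lie at 208 CPM or more for each gene and above the other cells, except for Ccl5 in room air, where T cells (6078 CPM) lie above them.

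Several class I genes of antigen presentation were higher in members: H2-K1, a classical class I chain, had 2099.8 and 1849 CPM in aneurysm and room air members and 879.8 and 921 CPM in cDC2 cells, and the proteasome activator Psme2 had 1988 and 952 CPM against 375 and 296 CPM. Of 7 class I genes with at least 50 UMIs in each library, 3 were at least 2-fold above cDC2 cells in both, where 11% of all 263 genes were. Of 9 class II genes 0 were higher, a count near that background, and 1 was lower, where 1.52% of all genes were. Cd74, the invariant chain, had 32265 and 37210.1 CPM in members and 38255 and 42394 CPM in cDC2 cells. The lower one was H2-DMa, a subunit of the peptide-loading molecule H2-M, at 402 and 579.9 CPM in members and 1178 and 1181 CPM in cDC2 cells. The antigen uptake list, which includes Cd209a and Clec9a, summed to 1517 CPM in aneurysm members and 7211 CPM in cDC2 cells. In room air the sums were 4956 and 7308 CPM, and 1646 CPM in members with 2 UMIs of each gene. Receptors that define the comparison cells were low in members. Cd209a, which defines the comparison cDC2 cells, had 10.9 and 32.8 CPM in members, against 117 and 63.2 CPM in B cells. Xcr1 and Clec9a, which define the cDC1 cells, had 21.7 and 3.62 CPM in aneurysm members and 0 UMIs in room air members.

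The levels of aneurysm members were then divided by those of room air members. Of 983 genes with at least 50 UMIs over both libraries together, 57 (5.8%) were at least 2-fold higher in aneurysm and 65 (6.61%) at least 2-fold lower, around a median log2 ratio of 0.05 over all of them. The lower genes were a smaller share in cells chosen with more UMIs. Among the 44 and 10 cells with 2 UMIs of each gene, 36 of 720 genes (5%) were higher and 11 (1.53%) lower. In the wider set of 63 and 32 cells, 21 of 1421 (1.48%) were higher and 25 (1.76%) lower. Genes are named below by how far the 95% bound nearest to 1 lies from 1, with the ratio in all 3 sets. Cells with at most 2 of the 10 markers were 3 of 50 in aneurysm and 5 of 18 in room air, and 0 of 44 and 0 of 10 with 2 UMIs of each gene.

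Among the 12 leading genes higher in aneurysm, 6 kept an interval above 1 and a ratio of 1.5 or more in all 3 sets: Laptm4b, Serpinb6b, Lima1, Mthfd2, Ctnna1 and Rcsd1. Rcsd1, which encodes a regulator of actin capping protein, came closest to losing it, with a lower bound of 1.01 in the wider set. The 12 genes were chosen by their interval in the members, and cells with 2 UMIs of each gene lie within both other sets. Passing in all 3 sets is therefore not independent support. Serpinb6b, an inhibitor of serine proteases, had 717 CPM in aneurysm and 197 CPM in room air members, a ratio of 3.64 (2.24 to 6.27). The ratio was 2.03 (1.25 to 3.49) with 2 UMIs of each gene and 1.62 (1.27 to 2.08) in the wider set. Its UMIs lay in 36 of 50 aneurysm cells and 6 of 18 room air cells, and its level was 3.02 and 0 CPM in cDC2 cells. Mthfd2, a mitochondrial enzyme of one-carbon metabolism, had 369 and 98.5 CPM, ratios of 3.75, 3.12 and 1.65 in the 3 sets. Lima1, an actin-binding protein, had 224 and 43.8 CPM in aneurysm and room air members, and ratios of 5.13, 3.59 and 1.89. Ctnna1, alpha-catenin, had 275 and 76.6 CPM and ratios of 3.59, 2.61 and 1.71. Laptm4b, a lysosomal membrane protein, had 51 UMIs in 16 aneurysm cells and 1 UMI in 1 room air cell, a ratio of 16.9 (2.9 to 679). With each member cell weighted equally the ratio of Laptm4b was 7.12, and that of Rcsd1 was 6.21 against 4.63 by summed UMIs. In the wider set the ratio of Laptm4b was 2.07 (1.19 to 3.83), and there 12 of 16 room air UMIs lay in 1 cell. Its level was 60.7 and 52.8 CPM in cDC1 cells and 10.1 and 8.47 CPM in cDC2 cells.

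The other 6 leading genes had a ratio under 1.5 in at least 1 of the other sets. Cst3, cystatin C, an inhibitor of cathepsins that is abundant in dendritic cells, had 12994 CPM in aneurysm and 6214 CPM in room air members, a ratio of 2.09 (1.91 to 2.29). It was 1.23 (1.11 to 1.37) with 2 UMIs of each gene and 1.22 (1.16 to 1.29) in the wider set. With each member cell weighted equally the ratio of Cst3 was 1.7, outside the interval of 1.91 to 2.29. Psme2 had ratios of 2.09, 1.65 and 1.34 in the 3 sets, and Rps27l, a p53-responsive ribosomal protein paralog, 2.28, 1.61 and 1.47. Reads of Rps27l could be shared with its paralog Rps27, so its value is uncertain. Socs2 had ratios of 2.48, 1.49 and 1.3, and its interval at 2 UMIs each reached 0.97. Samsn1 had 2.16, 1.34 and 1.11, with lower bounds of 0.987 and 0.942 in the last 2 sets. Gpr132, a receptor for oxidized lipids and lactate, had 5.03 and 4.47 in the first 2 sets and 1.24 (0.831 to 1.87) in the wider set.

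**Figure D4:**
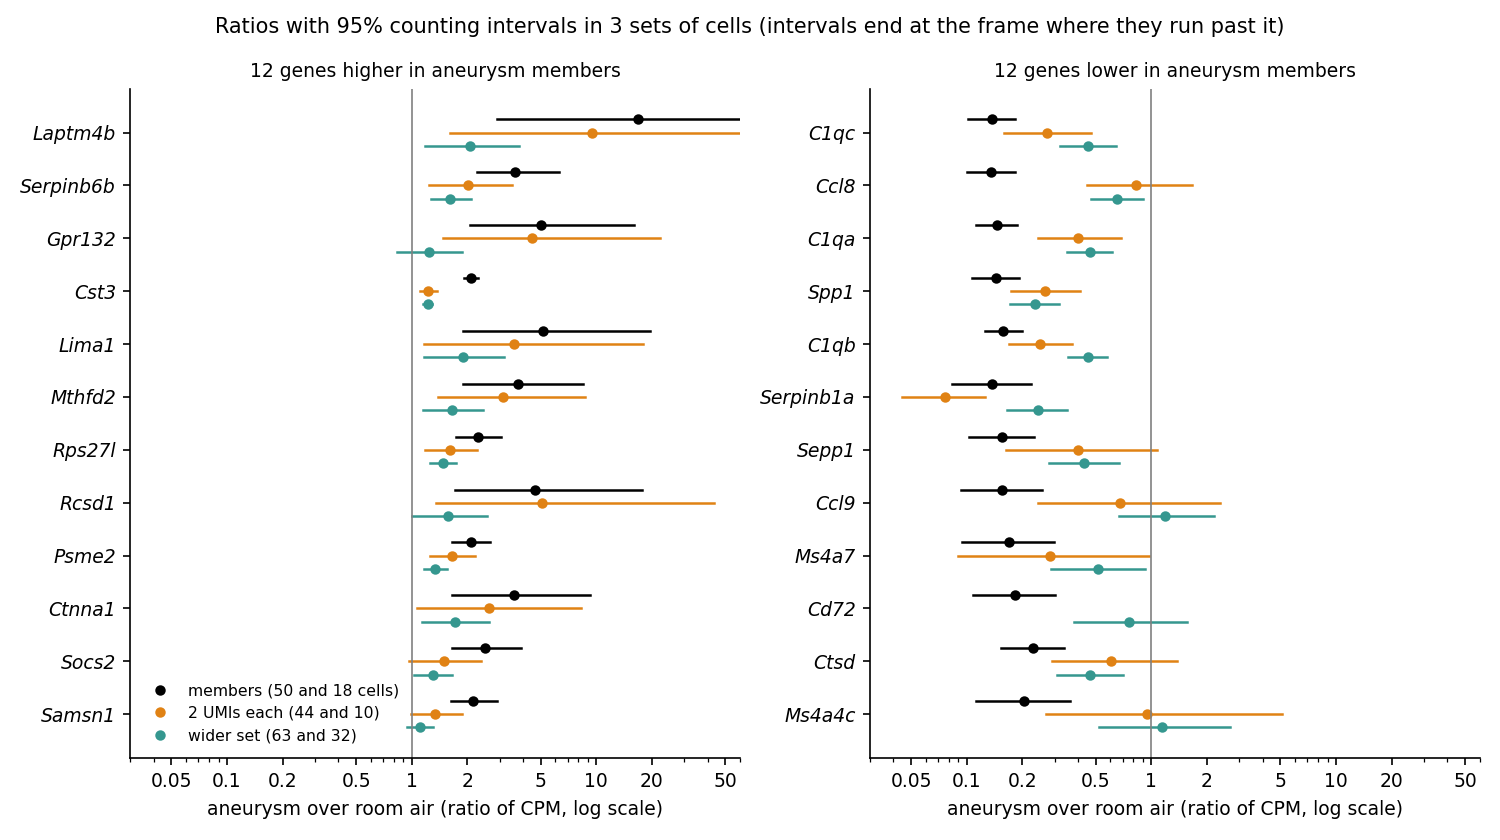
Ratio of CPM, aneurysm over room air (log scale, grey line at 1), with exact 95% counting intervals for the 12 leading genes higher (left) and lower (right), in members (black), cells with 2 UMIs of each gene (orange) and the wider set (green). Most ratios lie nearer to 1 in the orange and green sets; Cd72 has no orange point because its room air sum is 0 there.

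Of the 12 leading genes lower in aneurysm, 5 were on the list of 14 macrophage markers: the 3 chains of complement C1q, Spp1 (osteopontin) and Ms4a7. The others were Sepp1 (selenoprotein P), Ctsd (cathepsin D), the chemokines Ccl8 and Ccl9, Serpinb1a, Cd72 and Ms4a4c. Several of these had levels in other cells, with Ctsd at 398 and 434 CPM in aneurysm and room air cDC2 cells and Cd72 at 393 and 457 CPM in B cells. C1qa had 340.3 CPM in aneurysm and 2341 CPM in room air members, a ratio of 0.145 (0.113 to 0.186), which was 0.402 with 2 UMIs of each gene and 0.462 in the wider set. Spp1 had 243 and 1685 CPM, with ratios of 0.144, 0.266 and 0.235. C1q UMIs were also present in lymphocytes and other dendritic cells, and at a higher level in room air. The 3 C1q genes took a median of 0.0596% of UMIs in aneurysm and 0.219% in room air cells with 2 UMIs of each gene. The medians were 0.0490% and 0.183% in B cells and 0.0437% and 0.172% in cDC2 cells. The cDC2 cells were kept only with at most 0.3% of UMIs from these genes, which limits their medians. Of 14 macrophage markers 13 were detected in aneurysm and 12 in room air members. The sum of their levels per cell had a median of 1239 CPM in aneurysm and 4000.5 CPM in room air, with highest cells at 11753 and 37647 CPM. Mertk had 0 UMIs in the members of both libraries and Lyve1 had 0 in room air members. The summed level over all members was 1716 CPM in aneurysm and 10569 CPM in room air, and 4371 and 6164 CPM in B cells. Subtracting 10% of the level in B and T cells of the same library moved the ratio of C1qa to 0.0974. The part of RNA from macrophages in these ratios was not tested.

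Single cells held most UMIs of several other genes. Of 156 room air UMIs of Ccl8, 126 lay in 1 cell, and its ratio was 0.136 by the rule and 0.829 (0.448 to 1.65) with 2 UMIs of each gene. Of 154 room air UMIs of Spp1, 77 lay in 1 cell. Of 60 room air UMIs of Serpinb1a, 51 lay in 1 cell, as did 17 of 25 in aneurysm. Ccl9 had a ratio of 0.156 by the rule and 1.18 (0.667 to 2.18) in the wider set. Cxcl9 and Cxcl10, chemokines induced by interferon gamma, had 33 and 45 UMIs in room air members, of which 32 and 44 lay in 1 cell, and 3 and 0 UMIs in aneurysm members. Gzma, a granzyme of cytotoxic lymphocytes, had 31 UMIs in a single aneurysm member.

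Ccl22 and Ccl17 were detected in a minority of the cells. Ccl22 had a UMI in 21 of 50 aneurysm and 5 of 18 room air members, and the 3 highest cells held 52.2% and 89.5% of its UMIs. Its ratio was 2 (1.23 to 3.45) by the rule, 6.05 with 2 UMIs of each gene, where room air held 3 UMIs, and 0.838 (0.684 to 1.03) in the wider set. In that set 1 room air cell held 82 of 154 UMIs and 2 aneurysm cells held 70 and 69 of 261. Ccl17 had 25 UMIs in 7 aneurysm members and 1 UMI in room air members. In the wider set it had 475 CPM in aneurysm and 158 CPM in room air, a ratio of 3 (2 to 4.65), with 144 of the 170 aneurysm UMIs in 2 cells. Ccl17 was also present in aneurysm cDC2 cells, at 379.5 CPM, against 16.9 CPM in room air cDC2 cells. The order of the libraries in Ccl22 thus depends on which cells are counted.

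Lists of functionally related genes were described by the genes past 50 UMIs and by a fold of 1.5, which 16.4% of all 983 genes exceeded in the higher and 14.6% in the lower direction. Of 14 NF-kB and maturation genes, 9 were at least 1.5-fold higher and 0 lower, with a median log2 ratio of 0.71 against 0.05 over all genes. They include the transcriptional repressor Etv3, with ratios of 2.34, 1.53 and 1.59 in the 3 sets, and Birc3, a ubiquitin ligase of TNF receptors, with 2.48, 2.12 and 1.7. With 2 UMIs of each gene 2 of 11 were higher and 0 lower, where 15.7% and 6.25% of all 720 genes were, and the median was 0.19 against 0.09 over all genes. In the wider set 2 of 16 were higher and 0 lower, where 6.9% and 8.23% of all 1421 genes were, and the median was 0.15 against 0.01. Regulatory molecules had 4 of 4 genes higher (Cd200, Socs2, Cd274 and Il4i1), with a median of 0.94 by the rule. With 2 UMIs of each gene 1 of 4 was higher and 0 lower, with a median of 0.38, and in the wider set 0 of 8 were higher and 1 lower, with a median of 0.13. Of 15 migration and cytoskeleton genes, 7 were higher and 1 (Vim, the intermediate filament vimentin) lower, with a median of 0.53. With 2 UMIs of each gene 1 of 14 was higher and 1 lower, with a median of 0.15, and in the wider set 2 of 16 were higher and 0 lower, with a median of 0.22. Fabp5 had ratios of 1.76 (1.51 to 2.05), 1.38 (1.15 to 1.67) and 1.56 (1.39 to 1.75) in the 3 sets. Tmsb10, a thymosin that binds actin monomers, had 1.55 (1.32 to 1.83), 1.52 (1.22 to 1.92) and 1.34 (1.19 to 1.51).

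Costimulation and presentation genes passed 1.5-fold about as often as the 16.4% and 14.6% of all genes. Of 7 costimulation genes measured, 1 was at least 1.5-fold higher (Cd83, at 1.79) and 1 lower (Cd48, at 0.358), and the median was 0.19 by the rule, -0.00 with 2 UMIs of each gene and -0.14 in the wider set. Cd40, which receives the helper signal of CD4 T cells, had 188 and 186 CPM in aneurysm and room air members. Cd86, a ligand of CD28, had 188 and 252 CPM, and the interval of its ratio was 0.45 to 1.28. Of 10 class II genes 1 (Ifi30) was higher and 2 (H2-DMb1 and Ctss) lower, with a median of -0.27 by the rule and 0.01 in the wider set. Of 16 class I genes 2 (Psme2 and Psmb9) were higher and 2 lower. The lower ones were the chaperones Pdia3 and Calr. Pdia3 had 206 and 667 CPM in aneurysm and room air members, with ratios of 0.309 (0.212 to 0.451), 0.54 (0.288 to 1.07) and 0.517 (0.363 to 0.738) in the 3 sets. Calr had 0.457, 0.553 and 0.616. In cDC2 cells Calr had 567 and 544 CPM and Pdia3 523 and 555 CPM in the same libraries.

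The interferon and smoke response lists differed between the sets of cells. Of 7 interferon response genes, 5 (Isg15, Irf7, Gbp2, Bst2 and Ifi27l2a) were at least 1.5-fold lower in aneurysm and 0 higher, where 14.6% and 16.4% of all 983 genes were, with a median of -0.64. Without the cell of most UMIs of each gene in each library the median was -0.05. With 2 UMIs of each gene 0 of 5 were lower and 1 higher, with a median of -0.27, and in the wider set 0 of 6 were lower and 1 higher, with a median of 0.00 against 0.01 over all genes. The NRF2 and smoke response list had 5 genes past the minimum, with medians of -0.41, 0.59 and 0.13 in the 3 sets. Nqo1, a target of NRF2, and Cyp1b1, a target of the aryl hydrocarbon receptor, had 0 UMIs in the members of both libraries. Of 5 genes of cDC1 origin, 4 were at least 1.5-fold higher (Irf8, Batf3, Id2 and Laptm4b) and 0 lower, where 16.4% and 14.6% of all 983 genes were. With 2 UMIs of each gene 1 of 3 was higher, where 15.7% of all genes were. In the wider set 1 of 4 was higher, where 6.9% were, and 0 were lower in either set. The medians were 0.76, 0.25 and 0.42 in the 3 sets. The 6 cDC1 markers Xcr1, Clec9a, Wdfy4, Naaa, Cadm1 and Itgae summed to 196 and 98.5 CPM in aneurysm and room air members. With 2 UMIs of each gene they summed to 35.0 and 46.4 CPM, and in B cells to 139 and 126 CPM. An aneurysm member with 1 UMI of Ccr7 and of Fscn1 held 26 Naaa UMIs. Irf8, a transcription factor of the cDC1 lineage, had 796 and 525 CPM in aneurysm and room air members, its partner Batf3 174 and 76.6 CPM and the inhibitor Id2 1111 and 656 CPM, and their ratios in the wider set were 1.25, 1.25 and 1.43. Of 9 genes that tissue dissociation induces, 0 were at least 1.5-fold higher and 3 (Jund, Hsp90aa1 and Dnaja1) lower, with medians of -0.14, -0.40 and -0.15 in the 3 sets. Hspa8 had 2303 and 3381 CPM in aneurysm and room air members, 2421 and 3655 in cDC2 cells, 1318 and 2691 in B cells and 1809 and 3012 in T cells. Dnaja1, its co-chaperone, had 264 and 427 CPM in members and 243 and 766 CPM in B cells. The part of these genes in the results was not tested. Mki67, a marker of dividing cells, had 0 UMIs in the members of both libraries.

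The other lists had fewer genes past the minimum. Of 5 chemokines and cytokines, 1 (Ccl22) was at least 1.5-fold higher and 2 (Ccl9 and Il1b) were lower, with a median of 0.04. In room air 22 of 31 Il1b UMIs lay in 1 cell, and the ratio of Il1b was 0.587 by the rule, 1.32 (0.596 to 3.46) with 2 UMIs of each gene and 0.509 in the wider set. Of 4 sterol and lipid genes, 1 (Fabp5) was higher and 1 (Plin2, a lipid droplet protein) lower, with a median of 0.21. Of 6 glycolysis and hypoxia genes 0 were higher and 1 was lower, with a median of -0.13. Of 3 genes of cDC2 origin 0 were higher and 1 was lower, and of 2 innate sensing genes 0 were higher and 2 lower. Antigen uptake had 1 gene past the minimum, which was lower. The single cell cycle gene and the 2 survival genes past it were within 1.5-fold.

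**Figure D5:**
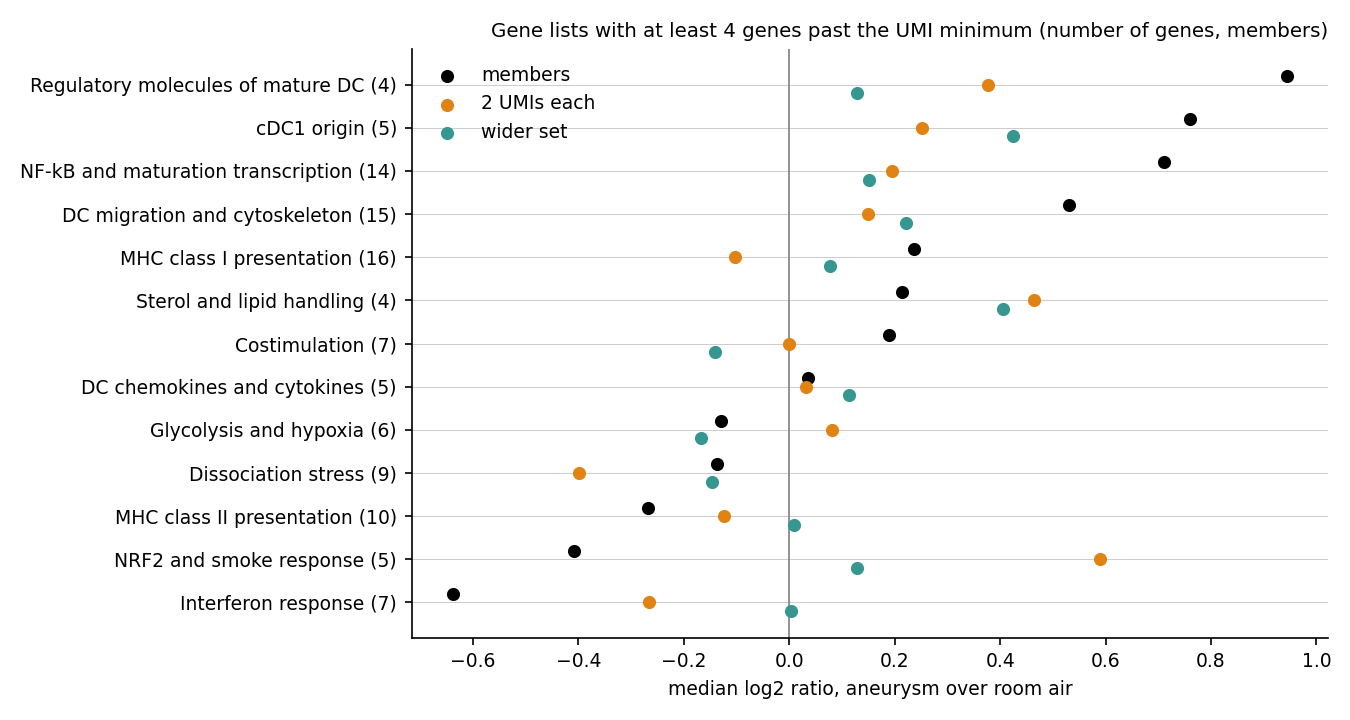
Median log2 ratio, aneurysm over room air (horizontal, grey line at 0), of the gene lists with at least 4 genes past 50 UMIs, in members (black), cells with 2 UMIs of each gene (orange) and the wider set (green). The members' medians spread from -0.64 to 0.94, and those of the wider set from -0.17 to 0.42.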

How the data were processed

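Each file deposited by the authors holds counts: UMIs per gene and called barcode, as whole numbers without normalization. The library kit was 10x Genomics 3' v2, per the labels' protocols. The submitters' processing notes name Cell Ranger, STAR and mm10, whose versions are not given in the sources used here. Files list 27998 genes and 2842, 1851 and 782 barcodes in aneurysm, room air and control, beside the 2685, 1736 and 738 cells the labels state. Barcodes with at least 200 genes and at most 10% mitochondrial UMIs were kept.

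UMIs were summed per library and set of cells and scaled to CPM. Ratios carry exact conditional binomial intervals and shares exact Clopper-Pearson intervals (scipy 1.17.1), at the 95% level, for counting error only. A sum of 0 was set to a floor of 3 counts. A call means a ratio of at least 2 (lists 1.5) among genes with at least 50 UMIs over both sums. The ratios were tried on simulated Poisson sums with known ratios. The simulation held no spread between cells, so it cannot check the intervals of genes with most UMIs in 1 cell. Genes are named as the 12 per direction whose bound nearest 1 lies farthest from it, the 15 with the largest smaller ratio over cDC2 cells, and members of 18 gene lists. The members, lists and rules were chosen with earlier results of these data known.

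Scrublet (scanpy 1.11.5) marked 0, 2 and 1 cells in aneurysm, room air and control by its automatic threshold, which was not used; the 64, 27 and 5 highest scores, at 0.8% per 1000 barcodes, included 1, 0 and 0 members and were removed as an alternative. The comparison rule set at first for cDC1 and cDC2 cells left 0 room air cells, because it asked for 0 UMIs of C1qa and C1qb, and was replaced after the data were seen.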

Additional observations from a re-analysis of the deposited data

Results flagged for a closer look

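Cells that the rule leaves out carried its signal. In aneurysm 28 cells, and in room air 26 cells, had at least 2 UMIs of Ccr7 and of Fscn1 and were left out by a UMI of Cd3e, Cd3d or Cd79a, while control had 0 such cells. Of these, 14 in each library had exactly 1 lineage UMI, and 9 in aneurysm and 4 in room air had 3 or more.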

How the results depend on the processing

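Aneurysm exceeded room air in the share of members under each alternative that gave a ratio except when the lineage genes were not used at 1 UMI each, where the ratio was 0.987. That set can also hold B and T cells, part of which carried Ccr7. The share was 2.32% in aneurysm with Ccr7 and 3 other markers, 3.42% and 3.46% in aneurysm and room air without the lineage genes, and 2.54% and 1.95% without them at 2 UMIs each. Room air was 0.541% at 2 UMIs each and 1.73% in the wider set. Asking also for 0 UMIs of 7 further lineage genes left 0.0352% (1 cell) in aneurysm and 0% in room air, so no ratio or gene count was computed.

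Genes at least 2-fold higher in aneurysm numbered 230 at a minimum of 20 UMIs, 24 at 100, 36 at 2 UMIs of each gene, 23 after thinning each cell to 3000 UMIs and 21 in the wider set, against 57. Those lower numbered 224, 21, 11, 21 and 25 in the same order, and 37 without the cell of most UMIs of each gene, against 65. Fewer genes pass a higher minimum by construction; the cause of the other changes was not tested. Scaling by the median of ratios, leaving ribosomal and mitochondrial genes out of the total, weighting cells equally, removing high doublet scores and subtracting 10% of the B and T cell level kept both counts within 1.5 times. Ccl9 turned to 1.18 and the interferon list to a median of 0.00245 in the wider set. Genes at least 2-fold below cDC2 cells in both libraries numbered 16 with members of 2 UMIs each, against 4. Those below cDC1 cells numbered 14 with such members and 6 without ribosomal and mitochondrial genes, against 3.

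No paired analysis was possible because each group is 1 library. With 50 and 18 cells, and 10 room air cells at 2 UMIs each, the depth of room air limits the ratios, and differences between mice within a pool are not seen. Barcodes were called by the authors' software, and the threshold of that step was not varied.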
